A study of Mus musculus with 8 samples.

Results

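The genes described here encode 3 families of RNA-binding splicing regulators: the SR proteins (symbols beginning Srsf and a digit), the heterogeneous nuclear ribonucleoproteins or hnRNPs (symbols beginning Hnrnp), and the RNA-binding motif proteins (symbols beginning Rbm and a digit). They were chosen by symbol among the protein-coding genes of the deposited table, and 70 of its 55335 genes met the rule, 11 of them SR, 20 hnRNP and 39 RBM genes. RNA came from RAW264.7, a mouse leukaemia-virus-transformed macrophage line, after 3 days of culture with hydroxyapatite doped with magnesium (HA/Mg) or with TABS, the Trio-Active bone scaffold. There were 4 libraries per material, numbered 5 to 8 in both groups, and the labels describe neither cells without a scaffold nor whether the libraries of a group were separate cultures, so p-values measure the spread between these libraries only. All libraries share the same line and carry no other treatment. The library names use the letter H for TABS and L for HA/Mg, and an exchange of the groups would turn every direction given here.

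Splicing removes introns from the primary transcript, and its choice of exons is set largely by proteins that bind the RNA near splice sites. SR proteins carry a tail rich in arginine and serine, bind mainly to exonic enhancers and help recruit the spliceosome, while many hnRNPs coat the transcript and often repress nearby exons. The RBM symbols cover diverse proteins, only some of them close relatives, that share an RNA-recognition motif. Among them are spliceosome components, a core protein of the exon junction complex and exon-skipping factors such as RBM10. In macrophages these proteins shape the transcripts made during activation, and several of them limit their own messages through exons that lead to decay. The values below are FPKM (fragments divided by transcript length and by the sequenced total) with 1 value per gene, so they measure how much message a regulator gene had and not how any transcript was spliced.

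Between 9908 and 10280 genes reached 1 FPKM in each library, and the spacing of low values implied about 19710000 to 23570000 fragments per library, an estimate only, since 27.4% to 32.3% of those values were whole fragments within 0.05. Macrophage markers were present (9 of 10 at a mean of 1 FPKM or more), and Mrc1 was near 0. Their summed level was 2489 to 2792 FPKM with TABS and 2056 to 2453 FPKM with HA/Mg. By the limma test 3 of 9 tested markers were higher with TABS (5.07% of all genes were) and the other 6 did not pass. Of osteoclast markers Mmp9 was higher with TABS, at 144 against 98.1 FPKM (adjusted p = 0.0136 in limma). Dcstamp, at 2.0 against 1.32 FPKM, did not pass (adjusted p = 0.157). Calcr was at 0 in all libraries, and Ctsk, Acp5, Ocstamp, Atp6v0d2 and Oscar stayed under 1 FPKM. Fibroblast, osteoblast, epithelial and endothelial markers were all under 1 FPKM, as were T and B cell markers except Lck (3.73 against 3.10 FPKM) and Blnk (5.96 against 4.93 FPKM). Fewer cells of a type and less RNA per cell cannot be told apart in such bulk libraries, and the part of these markers in the results below was not tested. On the first principal component of all tested genes HA/Mg 6 lay at 2.62, nearer to the TABS libraries (5.72 to 16.47) than to the other HA/Mg libraries (-16.4 to -12.65).

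Of 58 members that could be tested (1 FPKM or more in at least 4 libraries), 22 fell with TABS, 0 rose and 36 did not pass at an adjusted p under 0.05 in limma, and 57 had a negative change (98.3%, against 57.7% of all genes). Of all 10161 genes tested, 13.1% fell and 5.07% rose, so the members' share of 37.9% lay above the background for falls. This comparison is descriptive, since the members were chosen with earlier results of these data known. At an unadjusted p under 0.05 there were 34 lower members and 1 higher member. The median log2 change, on the log2(FPKM + 1) scale used throughout, was -0.20 over the members and -0.04 over all genes tested. Every TABS library lay below every HA/Mg library for 22 of the 58 members (37.9%, against 15.0% of all genes), and the reverse held for 0 members (8.05% of all genes). Of these 22 members 18 were among those that fell. The members that fell stood at 59.2% to 89.7% of their HA/Mg mean. Leaving out HA/Mg 6 raised the count of lower members to 31 (background 24.1%), and leaving out HA/Mg 5 or HA/Mg 7 reduced it to 6 each (background 3.16% and 3.42%). Without TABS 5, 6, 7 or 8 it was 9, 11, 10 and 15 (background 6.22%, 8.42%, 6.55% and 8.77%), and without HA/Mg 8 it was 10 (background 5.02%). It was 14 with median-of-ratios scaling (10.2%), 32 with array weights (24.4%) and 9 of 65 without the filter on low values (2.57%). After GC and length trends were taken out of every library it was 6, none of them an SR gene (background 3.78%), and the median was -0.08.

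**Figure D1:**
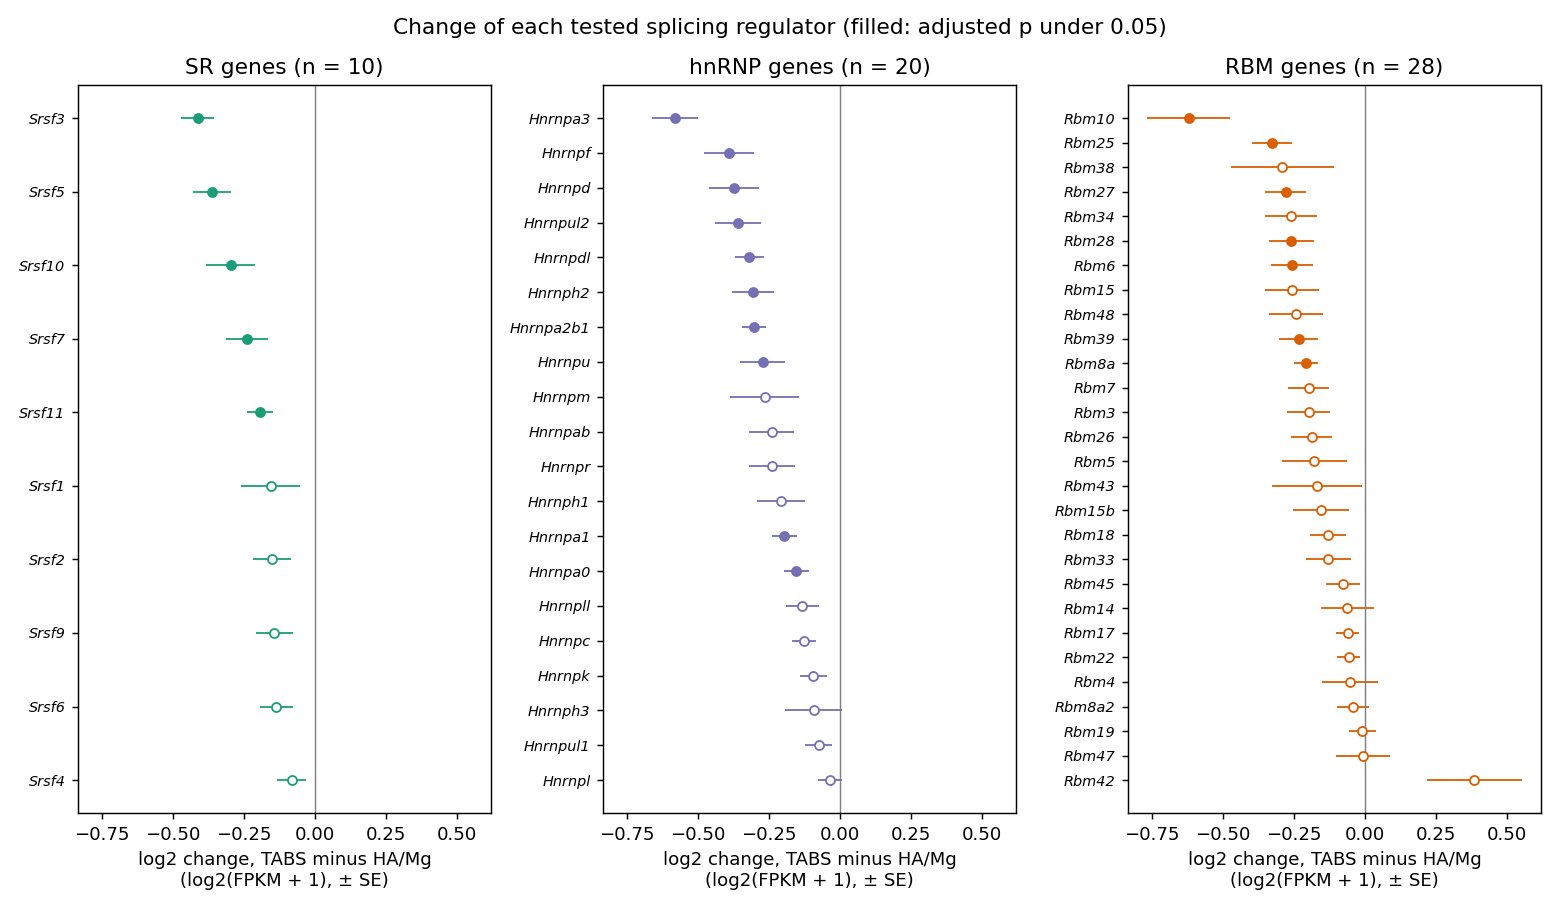
Log2 change (TABS minus HA/Mg, x axis) with its standard error for each tested SR, hnRNP and RBM gene, filled where the adjusted p was under 0.05. All 22 filled points lie left of 0, with Rbm10 at -0.62 and Hnrnpa3 at -0.58 farthest out, and Rbm42 at 0.38 (not passing) is the one gene to the right of 0.

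Among SR genes 5 of 10 tested members fell and 5 did not pass, with a median log2 change of -0.18, and Srsf12 was listed at 0 in every library. Srsf3, which encodes the smallest SR protein and acts in splicing, export and polyadenylation, was at 6.27, 6.22, 7.06 and 7.02 FPKM in TABS 5 to 8 and 9.48, 9.06, 9.49 and 8.67 FPKM in HA/Mg 5 to 8. The groups did not overlap, and the fall was 0.41 ± 0.06 (SE, adjusted p = 0.00851). Srsf5, a growth- and hormone-responsive SR protein, was at 6.96, 7.61, 8.11 and 7.53 FPKM with TABS and 9.87, 9.05, 10.2 and 10.9 FPKM with HA/Mg. TABS 5 was lowest, again with no overlap, and the log2 change was -0.36 ± 0.07 (adjusted p = 0.0130). Srsf3 and Srsf5 were lower at an adjusted p under 0.05 in all 8 fits that left out 1 library.

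Srsf10, an SR-like protein that turns repressor when dephosphorylated in heat shock, was measured at 3.01, 3.22, 3.30 and 3.85 FPKM with TABS and 4.69, 4.66, 3.64 and 4.39 FPKM with HA/Mg. Here TABS 8 lay above HA/Mg 7, and the change was -0.30 ± 0.09 (adjusted p = 0.0440). Srsf7, a zinc-knuckle SR protein and export adaptor, was at 19.3, 21.2, 24.1 and 23.6 FPKM with TABS and 26.5, 24.2, 27.4 and 26.5 FPKM with HA/Mg, so that TABS 7 and HA/Mg 6 nearly met (log2 change -0.24 ± 0.07, adjusted p = 0.0488). Srsf11 was at 14.9, 15.3, 16.5 and 15.4 FPKM against 18.8, 17.8, 17.6 and 17.4 FPKM, without overlap (log2 change -0.19 ± 0.05, adjusted p = 0.0253). These 3 calls were each kept in only 2 of the 8 fits that left out a library.

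The other tested SR genes did not pass. Srsf1, the founding member (SF2/ASF), was low at 2.20 ± 0.210 FPKM with TABS and 2.58 ± 0.496 FPKM with HA/Mg (SD, n = 4), with a 95% interval for the log2 change of -0.39 to 0.08 (adjusted p = 0.301). Srsf2 (SC35), which marks nuclear speckles, was at 25.2 ± 0.481 against 28.1 ± 2.81 FPKM (adjusted p = 0.138). In HA/Mg 6 it was at 24.4 FPKM, below all TABS libraries. The most abundant SR gene, Srsf9, was at 39.6 ± 3.69 against 43.7 ± 1.08 FPKM (adjusted p = 0.138), and Srsf4 was at 20.7 ± 1.07 against 22.0 ± 1.06 FPKM (adjusted p = 0.277). Srsf6 was at 7.91 ± 0.428 against 8.80 ± 0.481 FPKM (adjusted p = 0.121).

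Of the hnRNP genes, all 20 could be tested, 10 fell and 10 did not pass, and every one had a negative change (median -0.24). Hnrnpa3, an A/B-type hnRNP that binds RNA and single-stranded telomeric DNA, showed the largest fall of the family. It was at 39.2, 47.2, 41.6 and 52.3 FPKM in TABS 5 to 8 and 66.8, 65.8, 66.8 and 71.0 FPKM in HA/Mg 5 to 8. The highest TABS library lay well under the lowest HA/Mg library, and the log2 change was -0.58 ± 0.08 (adjusted p = 0.00851), or 1.5-fold lower in mean FPKM. Its relative Hnrnpa2b1, which reads m6A-associated RNA and sorts RNA for export, was at 24.6, 26.3, 26.0 and 27.4 FPKM with TABS and 32.1, 31.7, 32.6 and 33.3 FPKM with HA/Mg. The HA/Mg values were tight and no library overlapped (log2 change -0.30 ± 0.04, adjusted p = 0.00851).

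Hnrnpa1, an abundant A-type hnRNP and a classical antagonist of SRSF1, was at 99.8, 96.8, 90.5 and 95.4 FPKM with TABS and 108, 115, 109 and 107 FPKM with HA/Mg. It fell by 0.20 ± 0.04 with no overlap (adjusted p = 0.0207). Hnrnpa0, a single-exon member known to bind inflammatory messages, was at 53.6 ± 2.47 against 59.8 ± 1.64 FPKM, also without overlap (log2 change -0.15 ± 0.04, adjusted p = 0.0410). Thus 4 of the A-type genes fell, by unlike amounts. Hnrnpab, the related A/B protein, was at 72.2 ± 7.61 against 85.3 ± 5.60 FPKM, with every TABS library below every HA/Mg library, yet did not pass (adjusted p = 0.0594).

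Hnrnpf, which binds G-rich RNA, was at 87.1, 96.9, 83.6 and 90.8 FPKM with TABS and 126, 100.3, 112 and 134 FPKM with HA/Mg. HA/Mg 6 was close to TABS 6, and the log2 change was -0.39 ± 0.09 (adjusted p = 0.0207). Its relative Hnrnph2 was at 13.5, 15.2, 13.0 and 13.8 FPKM with TABS and 18.5, 15.0, 18.1 and 18 FPKM with HA/Mg. HA/Mg 6 fell just under TABS 6, so the groups overlapped (log2 change -0.31 ± 0.07, adjusted p = 0.0251). Of the other F/H genes, Hnrnph1 (7.80 ± 0.646 against 9.19 ± 1.13 FPKM) and Hnrnph3 (2.31 ± 0.403 against 2.52 ± 0.299 FPKM) did not pass (adjusted p = 0.115 and 0.530).

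Hnrnpd, or AUF1, which hastens the decay of cytokine messages with AU-rich elements, was at 9.98, 10.7, 10.7 and 11.1 FPKM with TABS and 13.5, 12.1, 13.8 and 17.1 FPKM with HA/Mg. HA/Mg 8 stood well above the others, and the log2 change was -0.37 ± 0.09 (adjusted p = 0.0247). The neighbouring gene Hnrnpdl, its close relative, was at 8.26, 8.12, 7.71 and 8.68 FPKM against 10.6, 10.6, 10 and 10.6 FPKM. No library overlapped, the log2 change was -0.32 ± 0.05 (adjusted p = 0.00940), and the call was kept in all 8 fits that left out a library. On chromosome 5 the 2 genes are 54638 bases apart.

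Hnrnpu, or SAF-A, which binds chromatin and RNA and helps shape the interphase nucleus, was at 17.2, 18.4, 16.3 and 17.6 FPKM with TABS and 21.9, 18, 21.1 and 24.0 FPKM with HA/Mg. HA/Mg 6 lay inside the TABS range (log2 change -0.27 ± 0.08, adjusted p = 0.0441), and the call was kept in 1 of the 8 fits that left out a library. Hnrnpul2, a relative of Hnrnpu, was at 22.2, 24.3, 21.0 and 23.8 FPKM against 29.7, 25.3, 30.6 and 33.1 FPKM, without overlap (log2 change -0.36 ± 0.08, adjusted p = 0.0207). Another relative, Hnrnpul1, was at 37.8 ± 2.06 against 39.9 ± 1.21 FPKM and did not pass (adjusted p = 0.289). Hnrnpk, a poly(C)-binding protein, was at 51.4 ± 2.35 against 54.9 ± 2.12 FPKM (95% interval for the log2 change -0.20 to 0.01, adjusted p = 0.176). Hnrnpl, which regulates Cd45 splicing in lymphocytes, was at 40.7 ± 1.77 against 41.8 ± 0.831 FPKM (adjusted p = 0.559). Hnrnpc, which binds nascent transcripts at uridine tracts, was at 58.3 ± 1.55 against 63.8 ± 2.56 FPKM, again without overlap but not passing (adjusted p = 0.0614). Of the other calls in this family, those of Hnrnpa3 and Hnrnpa2b1 were kept in 8 of these fits, that of Hnrnpa1 in 6, those of Hnrnpf, Hnrnpd and Hnrnpul2 in 3 and those of Hnrnph2 and Hnrnpa0 in 2. The remaining hnRNP genes, Hnrnpm, Hnrnpr and Hnrnpll, had overlapping groups and log2 changes of -0.27, -0.24 and -0.13 that did not pass (adjusted p = 0.146, 0.0692 and 0.129).

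Of 39 RBM genes 28 were tested, 7 fell and 21 did not pass, and the median log2 change was -0.18. Rbm10, an X-linked repressor of cassette exons whose known targets include an exon of the Notch regulator NUMB, had the largest change of all members. It was at 3.95, 4.14, 4.14 and 5.19 FPKM in TABS 5 to 8 and at 7.43, 5.32, 6.87 and 9.79 FPKM in HA/Mg 5 to 8. TABS 8 came close to HA/Mg 6 without crossing it, while HA/Mg 8 was the highest by a wide margin. The means were 4.36 ± 0.567 and 7.35 ± 1.86 FPKM, a 1.69-fold difference, and the Rbm10 log2 change was -0.62 ± 0.15 (95% interval -0.95 to -0.29, adjusted p = 0.0239). Only 22 of all tested genes had a more negative change. The call of Rbm10 was lost without TABS 5, 6 or 7 or HA/Mg 5 or 7 (adjusted p = 0.0519 to 0.0723) and was kept without TABS 8, HA/Mg 6 or HA/Mg 8.

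Its relatives Rbm5 and Rbm6, which lie 2562 bases apart on chromosome 9, were much lower in level. Rbm5 was at 1.49, 1.49, 0.985 and 1.25 FPKM with TABS and 1.48, 1.20, 1.74 and 2.05 FPKM with HA/Mg, with overlapping groups (95% interval -0.44 to 0.08, adjusted p = 0.281). Rbm6 was at 0.934, 1.08, 0.937 and 1.03 FPKM against 1.5, 1.12, 1.41 and 1.53 FPKM, with HA/Mg 6 just above TABS 6 (log2 change -0.26 ± 0.07, adjusted p = 0.0410). The +1 in the scale understates changes at such levels.

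Rbm25, a U1-associated regulator of BCL-X splicing, was at 3.14, 3.19, 2.69 and 3.16 FPKM with TABS and 4.30, 3.64, 4.31 and 4.04 FPKM with HA/Mg, without overlap (log2 change -0.33 ± 0.07, adjusted p = 0.0183). Rbm39, a U2AF-like coactivator and the target of the sulfonamide degraders, was at 18.5, 17.5, 17.3 and 20.6 FPKM against 22.3, 23.6, 21.8 and 20 FPKM. TABS 8 lay above HA/Mg 8, and the log2 change was -0.23 ± 0.07 (adjusted p = 0.0428). Rbm8a, or Y14, the exon junction complex partner of MAGOH, was at 26.9, 27.8, 27.6 and 29.5 FPKM against 31.4, 32.9, 31.8 and 33.4 FPKM, without overlap (log2 change -0.21 ± 0.04, adjusted p = 0.0170). Rbm17 (SPF45, 37.6 ± 1.36 against 39.2 ± 0.861 FPKM) and Rbm22 (11.1 ± 0.292 against 11.6 ± 0.0899 FPKM), both spliceosome components, did not pass (adjusted p = 0.299 and 0.339).

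Rbm27, which takes part in decay of nuclear RNA, was at 5.47, 6.18, 6.18 and 6.44 FPKM with TABS and 7.91, 6.61, 8.07 and 7.75 FPKM with HA/Mg (log2 change -0.28 ± 0.07, adjusted p = 0.0318). Rbm28, a nucleolar protein of ribosome assembly, was at 15.2, 14.9, 12.1 and 14.6 FPKM against 17.2, 15.4, 18.2 and 17.8 FPKM (log2 change -0.26 ± 0.08, adjusted p = 0.0493). Neither gene overlapped between groups, with HA/Mg 6 nearest to TABS in both. Of the RBM calls, those of Rbm25 and Rbm8a were kept in 6 of the 8 fits that left out a library, those of Rbm27 and Rbm39 in 2 and those of Rbm6 and Rbm28 in 1. Rbm3, a cold-inducible RNA-binding protein and the most abundant RBM gene, was at 55.7 ± 1.12 FPKM with TABS and 64.4 ± 8.09 FPKM with HA/Mg and did not pass (adjusted p = 0.0955). HA/Mg 6, at 75.8 FPKM, was its highest library, unlike for most members. Rbm15, which guides m6A writers to RNA, was at 7.29 ± 0.633 against 8.94 ± 1.18 FPKM (adjusted p = 0.0857).

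A few RBM genes, named after their values were seen, behaved differently from the rest. Rbm42 was the one tested member with a positive change (0.38 ± 0.17, adjusted p = 0.128), at 21.6, 27.0, 23.1 and 23.6 FPKM with TABS and 22.8, 14.0, 22.9 and 14.1 FPKM with HA/Mg. HA/Mg 6 and 8 were low and the other 6 libraries lay between 21.6 and 27.0 FPKM. Gm21982, an annotated transcript on the same strand that shares 1650 exonic bases with it, was at 5.25 and 7.18 FPKM in HA/Mg 6 and 8, at 4.09 FPKM in TABS 5 and at 0.349 to 0.658 FPKM in the other libraries, and its part in the Rbm42 values was not tested. Rbm38, a p53-induced stabiliser of messages, was at 8.85, 4.88, 6.63 and 10.4 FPKM with TABS and 9.21, 10, 9.9 and 8.21 FPKM with HA/Mg, so that the spread lay within TABS (adjusted p = 0.269). Rbm19 (11.6 ± 0.358 against 11.7 ± 0.528 FPKM), a nucleolar protein, had a 95% interval from -0.12 to 0.10, and Rbm47, an APOBEC1 cofactor, was at 1.97 FPKM in both groups. The other tested RBM genes all overlapped between groups and did not pass. Their log2 changes were -0.26 for Rbm34, -0.24 for Rbm48, -0.20 for Rbm7, -0.19 for Rbm26, -0.17 for Rbm43, -0.15 for Rbm15b, -0.13 for Rbm18 and Rbm33, -0.08 for Rbm45, -0.06 for Rbm14, -0.05 for Rbm4 and -0.04 for Rbm8a2.

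The 12 members below the filter were Srsf12 and 11 RBM genes. Rbm11, Rbm24, Rbm31y and Rbm46 were listed at 0 in all libraries, as was Srsf12, and Rbm20, the cardiac titin splicing factor, and Rbm44 were under 0.05 FPKM. Rbm12 was the highest, at 0.487 ± 0.315 FPKM with TABS and 1.01 ± 0.279 FPKM with HA/Mg. Rbm4b (0.664 against 0.660 FPKM), Rbm12b1 (0.405 against 0.361), Rbm12b2 (0.489 against 0.495) and Rbm41 (0.507 against 0.485) were alike in both groups in mean FPKM.

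**Figure D2:**
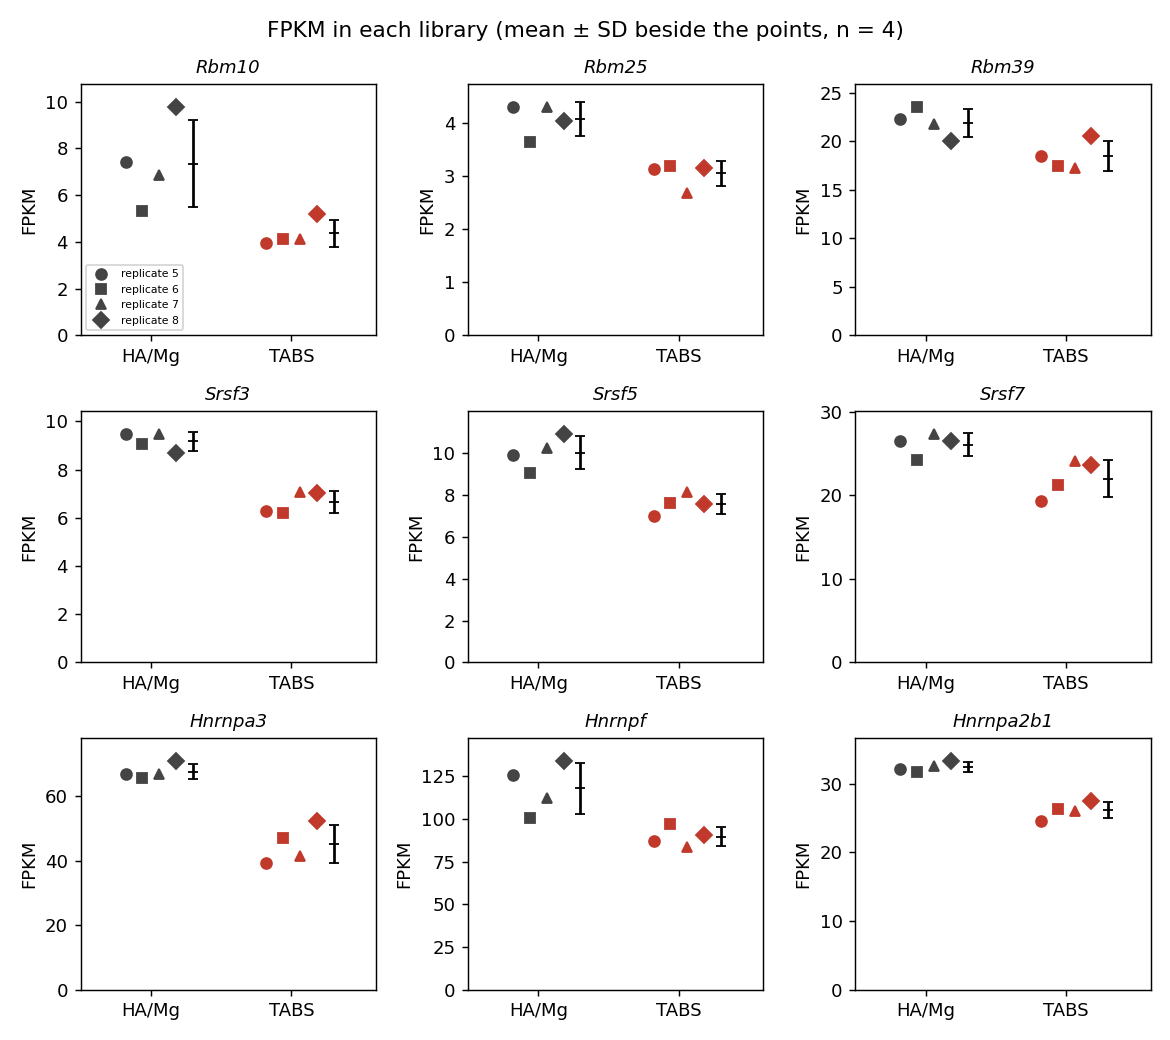
FPKM (y axis, from 0) in each HA/Mg and TABS library for 3 RBM, 3 SR and 3 hnRNP genes, with the mean and SD beside the points and the replicate number as the marker. Hnrnpa3, Hnrnpa2b1 and Srsf3 show the clearest gaps, while HA/Mg 6 lies close to TABS for Rbm10 (5.32 FPKM) and Hnrnpf (100.3 FPKM).

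The FPKM sums of each family, in which abundant members weigh most, were lower in the TABS libraries. Summed over all members, hnRNP messages were at 652, 676, 648 and 685 FPKM in TABS 5 to 8 and 794, 760.3, 783 and 833 FPKM in HA/Mg 5 to 8. SR messages summed to 145, 144, 156 and 158 FPKM with TABS and 174, 164, 173 and 179.9 FPKM with HA/Mg. RBM messages summed to 289, 288, 276 and 297 FPKM against 321, 316, 326 and 319 FPKM. In none of the 3 sums did a TABS library reach an HA/Mg library. The RBM sums rested in part on Rbm3, which did not pass. It was at 75.8 FPKM in HA/Mg 6 and 56.6 FPKM in TABS 8, the libraries whose RBM sums lay closest. Summed over all genes, the libraries were at 335500 to 350354 FPKM with TABS and 326760 to 340459 FPKM with HA/Mg. The median deviation of the tested members from each gene's mean was -0.09, -0.08, -0.16 and -0.06 in TABS 5 to 8 and 0.13, -0.009, 0.11 and 0.15 in HA/Mg 5 to 8, so HA/Mg 6 was the library nearest to TABS. It was the lowest HA/Mg library for 36 of the 58 tested members and for 15 of the 22 that fell. Among SR genes TABS 5 and 6 were lower (-0.15 each) than TABS 7 and 8 (-0.08 and -0.005), whereas among hnRNP genes TABS 7 was lowest (-0.20).

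**Figure D3:**
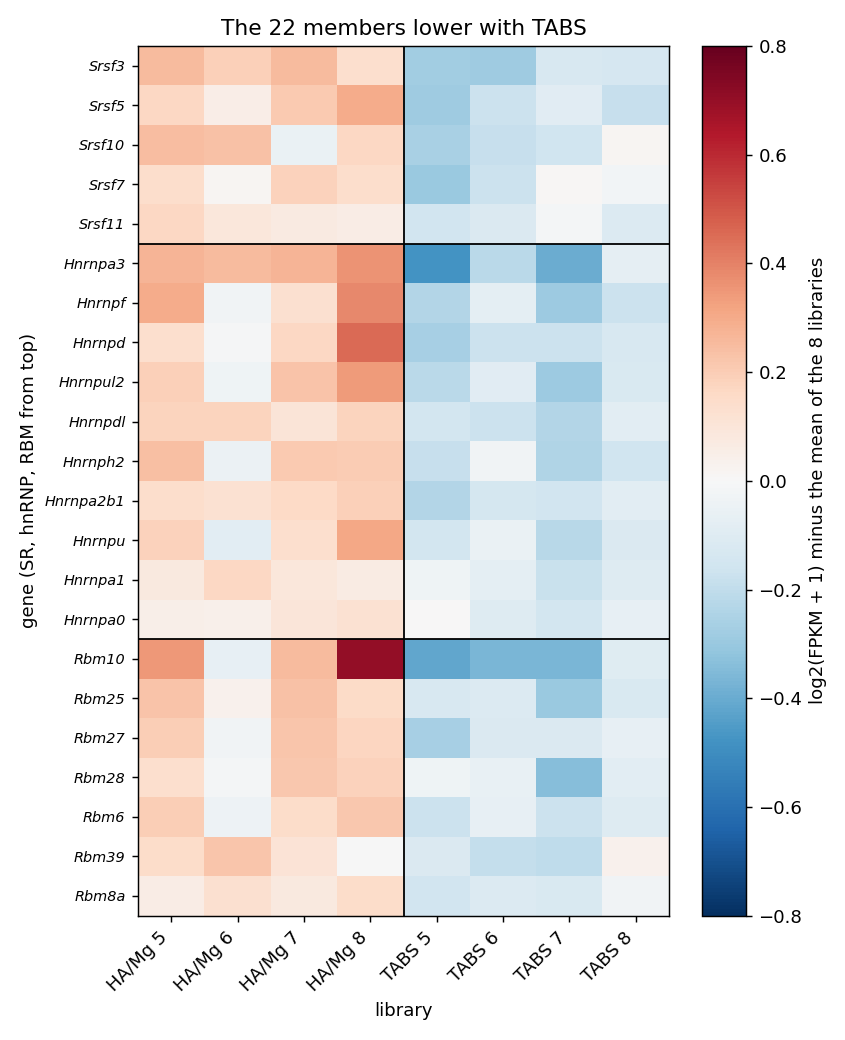
Deviation of log2(FPKM + 1) from the mean of the 8 libraries (colour) for the 22 members that fell (rows, grouped as SR, hnRNP and RBM) in each library (columns). HA/Mg libraries are mostly above and TABS libraries mostly below the mean, and HA/Mg 6 is the palest HA/Mg column, being the lowest of its group in 15 rows.

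GC content and transcript length moved with the comparison. Over all tested genes the log2 change followed the GC content of the longest transcript with a Spearman correlation of 0.54 and its length with -0.31, given as descriptions across genes of the same libraries. Splicing regulators had GC-poor transcripts, with a median of 44.4% against 49.8%, and a median length of 3508.5 against 3039 bases. With tested genes divided into 3 equal classes of GC content, 17 of 35 members in the lowest class (up to 46.8% GC) fell, where 27.9% of all genes in the class fell, and the median log2 change was -0.21 over these members and -0.18 over the class. In the middle class 3 of 13 members fell (Hnrnpf, Hnrnpul2 and Rbm28), against 9.57% of all genes, and in the highest class (above 52.8%) 2 of 10 fell, against 1.68%. Those 2 were Hnrnpa0, at 55.4% GC, and Rbm10, at 55.9% GC. Of all genes in the highest class 8 had a more negative change than Rbm10.

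When each library's trends on length and GC content were removed, 6 of the 58 members fell (10.3%, where 3.78% of all genes fell), and all 6 were among the 22. They were Rbm10 (log2 change -0.67 ± 0.14, adjusted p = 0.0319), Hnrnpa3 (-0.36 ± 0.08, adjusted p = 0.0406), Hnrnpf (-0.35 ± 0.08, adjusted p = 0.0367), Hnrnpul2 (-0.28 ± 0.06, adjusted p = 0.0318), Hnrnpdl (-0.22 ± 0.05, adjusted p = 0.0406) and Hnrnpa0 (-0.22 ± 0.04, adjusted p = 0.0268). Rbm10 and Hnrnpa0 thus had somewhat larger changes after the removal, and the other 4 had smaller ones. No SR gene passed then (0 of 10 in limma, 2 at an unadjusted p under 0.05), and Srsf3 was at -0.21 ± 0.08 (adjusted p = 0.122) and Srsf5 at -0.17 ± 0.07 (adjusted p = 0.140). The change of Hnrnpu went from -0.27 to -0.04 and that of Rbm25 from -0.33 to -0.10, and the median over the members from -0.20 to -0.08. Then 43 members had a negative and 15 a positive change, Hnrnpk, Srsf1 and Rbm5 among the latter. Of the 5 members kept in all 8 fits that left out a library (Srsf3, Srsf5, Hnrnpa3, Hnrnpa2b1 and Hnrnpdl), Hnrnpa3 and Hnrnpdl also passed after the removal.

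**Figure D4:**
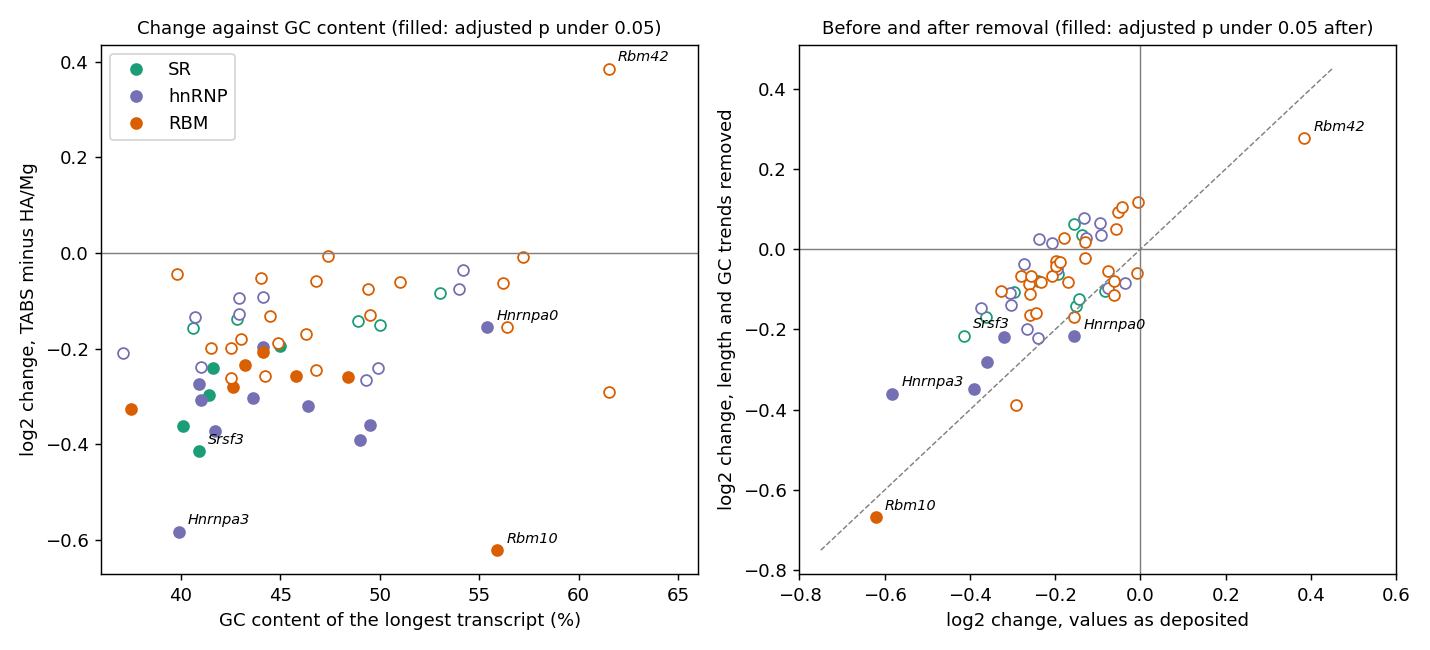
Left, log2 change (TABS minus HA/Mg) against GC content of the longest transcript for the tested members, filled where the adjusted p was under 0.05. Right, the change after removal of length and GC trends (y axis) against the change in the values as deposited (x axis), filled where the adjusted p was under 0.05 after removal, with the dashed line marking equal values. Rbm10 stays near the dashed line (-0.62 and -0.67), while Srsf3 moves from -0.41 to -0.21.

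The sequence before the start of the gene with the largest fall in each family is shown so that their base composition and short promoter motifs can be compared. The sequences are from RefSeq on GRCm38.p6, on the plus strand, and end before the first annotated start: chrX:20617253-20617502 for Rbm10, chr17:29032410-29032627 for Srsf3 and chr2:75659009-75659258 for Hnrnpa3. Capitals mark a GC box (GGGCGGGG) or a CCAAT box (CCAAT), which reads ATTGG on the other strand.
Rbm10: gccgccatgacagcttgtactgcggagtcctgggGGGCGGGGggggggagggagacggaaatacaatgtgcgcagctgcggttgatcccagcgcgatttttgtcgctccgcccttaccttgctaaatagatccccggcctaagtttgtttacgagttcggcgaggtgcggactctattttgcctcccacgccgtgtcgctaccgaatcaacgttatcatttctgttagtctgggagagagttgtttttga
Srsf3: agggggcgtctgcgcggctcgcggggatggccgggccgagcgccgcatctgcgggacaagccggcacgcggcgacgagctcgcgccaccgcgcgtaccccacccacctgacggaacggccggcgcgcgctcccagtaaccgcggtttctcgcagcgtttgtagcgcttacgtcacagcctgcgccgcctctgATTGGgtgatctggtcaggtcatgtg
Hnrnpa3: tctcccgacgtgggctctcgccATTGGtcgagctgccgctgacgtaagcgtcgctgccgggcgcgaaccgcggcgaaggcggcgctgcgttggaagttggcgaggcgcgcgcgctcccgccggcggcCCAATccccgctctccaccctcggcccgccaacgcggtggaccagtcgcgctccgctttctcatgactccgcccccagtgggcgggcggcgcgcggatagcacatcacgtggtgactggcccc
The Rbm10 stretch is 55.6% G and C and holds a GC box, the Srsf3 stretch is 71.1% and holds a CCAAT box in reverse, and the Hnrnpa3 stretch is 73.2% and holds a CCAAT box on each strand. Of the tested members 51 had RefSeq windows, 68 in all, each read over the full 250 bases before a start (also where a printed stretch is shorter) and on both strands. CCAAT was in 31 of the 68 windows (45.6%, against 35.8% of the 9278 windows of tested protein-coding genes) and the GC box in 22 (32.4% against 30.6%). The ETS letters CCGGAAG were in 14 (20.6% against 15.6%) and TATAAA in 7 (10.3% against 5.87%). The cAMP response element TGACGTCA was in 0 (against 2.75%), and an NRF1 motif (1.78% of all) and a palindromic motif (0.938% of all) were in 1 window each. These matches describe letters only.

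All 3 genes lie on the plus strand of GRCm38: Rbm10 (ENSMUSG00000031060) at chrX:20617503-20650901, Hnrnpa3 (ENSMUSG00000059005) at chr2:75659261-75669407 and Srsf3 (ENSMUSG00000071172) at chr17:29032628-29043373. The sources used here do not say whether counting used strand, so reads where exons of opposite strands overlap cannot be told apart. Rbm10 shares 117 exonic bases (3.15% of its exonic bases) with Ndufb11, a subunit gene of respiratory complex I on the minus strand. Where in Rbm10 these bases lie was not examined. Ndufb11 was at 71.9, 69.4, 80.9 and 80.8 FPKM with TABS and 65.5, 79.1, 65.5 and 61.5 FPKM with HA/Mg, a change of opposite sign that did not pass (0.16 ± 0.08, adjusted p = 0.198). Exons shared with a tested gene, on either strand, were found for 9 tested members, among them Srsf2 (with Mfsd11 and Mettl23), Hnrnpu (with Cox20) and Hnrnpab (with Phykpl). Near-identical copies make other values uncertain: Rbm3-ps, a processed pseudogene of Rbm3, was at 10.4 against 11.9 FPKM, and Rbm8a2, a copy of Rbm8a, at 1.87 against 1.96 FPKM. Pseudogene copies of the other members were not searched for.

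Other genes of the splicing machinery, in lists also chosen with earlier results of these data known, were counted in the same way. Over 9 lists with 168 tested genes 40 fell (23.8%, against 13.1% of all genes), 2 rose and 126 did not pass, with a median log2 change of -0.12. Of 26 tested proteins of the U1 and U2 particles 9 fell, led by Dhx15, the helicase that takes spent spliceosomes apart (15.9 ± 0.886 against 21.7 ± 1.46 FPKM, log2 change -0.43 ± 0.06, adjusted p = 0.00851). Htatsf1 (4.66 ± 0.361 against 6.42 ± 0.533 FPKM) and the SF3A subunit gene Sf3a3 (25.3 ± 1.55 against 32.4 ± 3.26 FPKM) fell as well (adjusted p = 0.0133 and 0.0200). All 14 tested Sm and LSm genes, which encode the ring around spliceosomal RNAs, did not pass (0 in limma, 1 at an unadjusted p under 0.05), and their median was -0.03. Of 17 proteins of the U4/U6.U5 particle 2 fell, a share near that of all genes, namely Prpf3 (9.12 against 11 FPKM) and Prpf4 (7.78 against 9.97 FPKM). Of 23 tested genes of the Prp19 complex and the catalytic steps 8 fell, with Prpf18, a factor of the exon-joining step (5.83 ± 0.704 against 8.43 ± 1.12 FPKM, log2 change -0.46 ± 0.10), ahead of Cwc27 (10.8 against 14.0 FPKM) and Crnkl1 (5.35 against 6.99 FPKM).

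Of 20 SR-related genes 6 fell, with Tra2b, a sequence-specific activator close to the SR family (5.27 ± 0.345 against 7.39 ± 0.591 FPKM, log2 change -0.42 ± 0.07, adjusted p = 0.0101), Pnn (7.81 against 10.2 FPKM) and Scaf11 (3.92 against 5.24 FPKM) in the lead. Of 11 genes of SR protein kinases and nuclear import 2 fell, a share near that of all genes (13.1%). They were Tnpo3, the importin that carries phosphorylated SR proteins into the nucleus (8.07 ± 0.739 against 11 ± 0.806 FPKM, log2 change -0.41 ± 0.07, adjusted p = 0.0126), and the SR kinase gene Clk4 (1.87 against 2.61 FPKM). Of 30 other RNA-binding regulators 5 fell, a share near that of all genes, among them Syncrip (6.41 against 8.26 FPKM), Taf15 (39.6 against 49.4 FPKM) and Sfpq (6.63 against 8.35 FPKM).

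Among 15 genes of the exon junction complex and nonsense-mediated decay, the pathway that destroys transcripts with early stop codons, 5 fell and 2 rose. Over all genes 13.1% fell and 5.07% rose. Upf2 (4.25 ± 0.268 against 5.83 ± 0.579 FPKM, log2 change -0.38 ± 0.07, adjusted p = 0.0143) and the kinase gene Smg1 (3.86 against 5.08 FPKM) fell, while Smg9, a regulator of that kinase, rose (15.2 ± 0.581 against 11.8 ± 1.26 FPKM, log2 change 0.34 ± 0.07, adjusted p = 0.0168). The other gene that rose, Dhx34, is named after its value was seen (0.22, adjusted p = 0.0342). Of 12 genes of m6A RNA methylation, the mark that RBM15 helps to place, 3 fell: the writer partners Virma (8.73 against 12 FPKM) and Zc3h13 (5.44 against 7.51 FPKM) and the reader Ythdf1 (16.9 against 19.5 FPKM). The call of Virma was kept in 3 of the 8 fits that left out a library, and those of Zc3h13, Ythdf1 and Smg1 in 1. The calls of Prpf3, Crnkl1, Clk4, Syncrip, Taf15 and Dhx34 were kept in 2. Those of Dhx15, Htatsf1, Cwc27, Pnn, Tra2b, Tnpo3 and Upf2 were kept in all 8. With the length and GC trends removed, 0 of the 12 m6A genes fell. Once the trends on length and GC were removed, 14 of the 168 genes fell (8.33%) and 0 rose, where 3.78% of all genes fell and 2.59% rose. Dhx15, Htatsf1, Sf3a3, Cwc27, Pnn, Tra2b, Tnpo3, Sfpq and Taf15 were among them, and Prpf18, Upf2 and Virma were not (adjusted p = 0.054, 0.0639 and 0.0684).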

How the data were processed

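RNA of RAW264.7 cells was measured in 8 libraries, 4 with HA/Mg and 4 with TABS, grouped by sample title. The authors deposited 1 table of FPKM values. Per the labels' protocols, TRIzol RNA and the NEBNext Ultra RNA kit were used with paired-end NovaSeq reads. The submitters' processing notes name STAR, fastp, DESeq2 and GRCm38, with versions, FPKM tool, annotation and strand setting not given in the sources used here. GENCODE symbols matched 55154 of 55335 identifiers.

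The 10161 genes that reached 1 FPKM in 4 or more libraries entered a limma 3.58.1 test (R 4.3.3) of log2(FPKM + 1), with empirical Bayes moderation, a mean-variance trend, two-sided p-values and Benjamini-Hochberg adjustment over all genes. FPKM scales each library to its total, so shifts in abundant genes move all others, and length and GC effects remain. Length and GC trends were removed per library with natural splines of 4 degrees of freedom. Other alternatives were pseudocounts, filters, scalings, moderation, array weights, the replicate block and each library left out. On simulated data for TABS against HA/Mg over 10161 genes, 40% of changes of 0.3 and 76% of changes of 0.5 on the log2 scale were recovered, with 9 false calls among 117.

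Named were 14 genes fixed by name, in each family the 5 largest changes among those that passed and the 3 most abundant members, and in each list the 3 largest changes that passed (or the 2 smallest p-values). Rbm42 and Rbm38 were named after their values were seen, and further members are given to account for each family. The members and lists were chosen with earlier results of these data known.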

Additional observations from a re-analysis of the deposited data

Results flagged for a closer look

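In 8 of 108 groups of 4 libraries examined, 1 library stood far from the other 3 (its gap to the nearest, over the group's range, passed Dixon's 95% critical value), and chance gives about 1 in 20. For members these were Rbm10 in TABS 8 (5.19 FPKM, others 3.95 to 4.14), Rbm25 in TABS 7 (2.69 FPKM, others 3.14 to 3.19) and Hnrnpdl in HA/Mg 7 (10 FPKM, others at 10.6). For other genes they were Crnkl1 in HA/Mg 6 (6.03 FPKM, others 7.22 to 7.43), Cwc27 in TABS 8 (11.5 FPKM, others 10.6 to 10.7), Taf15 in HA/Mg 6 (43.1 FPKM, others 50.9 to 52.4) and Scaf11 in TABS 8 (4.26 FPKM, others 3.76 to 3.84) and HA/Mg 6 (4.53 FPKM, others 5.40 to 5.58).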

How the results depend on the processing

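As deposited, 5 SR, 10 hnRNP, 7 RBM and 42 listed genes changed, where 18.1% of all tested genes changed in either direction. Without a filter on low values these counts were 3, 4, 2 and 21, where 2.57% of all genes fell and 0.96% rose. With median-of-ratios scaling 2 SR and 4 RBM genes changed (10.2% of all genes fell and 8.48% rose). With the length and GC trends removed the counts were 0, 5, 1 and 14 (3.78% fell and 2.59% rose). With array weights 12 RBM and 71 listed genes changed (24.4% of all genes fell and 10.3% rose). Across the 8 fits that left out a library they ranged over 2 to 7 SR, 3 to 13 hnRNP, 0 to 11 RBM and 9 to 67 listed genes, lowest without HA/Mg 5 or 7 (for SR genes without TABS 5, TABS 6, HA/Mg 5 or HA/Mg 8) and highest without HA/Mg 6. In the same fits 3.16% to 24.1% of all tested genes fell and 1.06% to 8.54% rose. The Rbm10 log2 change ranged from -0.746 to -0.488 in these fits, and was -0.62 without the filter (adjusted p = 0.0767). No member rose in any fit. Only 54 genes, members and listed genes together, were followed singly through these alternatives. Among them the Hnrnpk log2 change (0.065), Rbm5 log2 change (0.029), Srsf1 log2 change (0.064) and Lsm8 log2 change (0.039) reversed after removal of the trends. Over all 58 tested members, 15 had a positive change after the removal and 1 as deposited. The cause of these moves was not tested.

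Same-numbered libraries showed no shared deviation from their group means (correlations of 0.01, -0.28, -0.16 and 0.13). With so few libraries these correlations cannot decide whether the shared numbers pair them. With the replicate block limma called 0 of all 10161 genes lower and 0 higher. It thus called 0 SR, 0 hnRNP, 0 RBM and 0 listed genes (30 members at an unadjusted p under 0.05). Rbm10 was at -0.62 in that fit (adjusted p = 0.0589). Over all genes 515 rose and 1327 fell as deposited, 862 and 1033 with median-of-ratios scaling, 806 and 1192 with quantile normalization and 251 and 1549 after rescaling to equal sums. Depth limits genes near 1 FPKM most.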
